A study of Mus musculus with 8 samples.

Results

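The interleukin-1 family and its receptors were examined in whole B16F1 melanoma tumours from 2 kinds of mouse host, untreated or irradiated. The 10 genes were listed by name: the ligands Il1a, Il1b, Il18 and Il33, the antagonist Il1rn, the receptor genes Il1r1, Il1r2, Il1rap and Il1rl1, and the protease gene Casp1. Probe sets that the array annotation assigns to a single listed gene were taken, 16 in all, and each gene was represented by its brightest probe set. They covered 9 of the 10 genes, out of 18193 genes with such a probe set, and Il1rl1 was not analysed here. Of the 9, 6 had a mean signal at or above the median of all probe sets (a signal of 68.8) and were tested among 11345 genes: Il1b, Il1rn, Il18, Il33, Il1r2 and Il1rap. All 6 had a pool mean above that level in each of the 4 pools.

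B16F1 cells, a C57BL/6-derived melanoma line, were placed under the skin of the right hind limb of 5 to 7 mice aged 8 to 12 weeks. Hosts were C57BL/6-NCr wild-type mice (WT) or TNFR1,2 -/- mice (TNFR KO) bred from the stock B6;129S-Tnfrsf1a[tm1Imx] Tnfrsf1b[tm1Imx]/J, which lack both TNF receptors. The labels call the strain of both hosts C57BL/6, while the stock's name includes 129S, so strain background and receptor genotype cannot be told apart. The knockout is of the host, and the injected B16F1 cells were of the same line in every group. At 268 to 478 cubic mm, tumours received no treatment or a single X-ray dose of 20 Gy to the limb, and were excised 5 h after treatment. RNA of each group was pooled, and each of the 4 pools was read on 2 arrays, so the duplicates are technical and there is no replicate pool or animal. The stated purpose was to find genes tied to radiosensitization where the host stroma lacks TNF signalling.

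Interleukin-1 alpha and beta are inflammatory cytokines that signal through a receptor made of the Il1r1 and Il1rap products and the adaptor Myd88, which activates NF-kB. Interleukin-1 beta and interleukin-18 are made as inactive precursors that caspase-1 cleaves. The pathway is held in check by the receptor antagonist encoded by Il1rn and by the decoy receptor encoded by Il1r2, which binds ligand without signalling. Myeloid cells are a major source of interleukin-1 beta in inflamed tissue, and TNF is a classical inducer of the gene.

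Transcripts of interleukin-1 beta, its antagonist and its decoy receptor rose after 20 Gy in tumours of WT hosts. In WT hosts 3 of 6 tested members rose (2.25% of all tested genes did) and none fell (0.203%, or 2.45% called in either direction), with a median log2 difference of 1.32 against -0.02 over all tested genes. In TNFR KO hosts none of the 6 passed as higher (0.881%) or lower (0.485%), with a median of -0.16 against -0.02. By limma, 1 of the 6, Il1rn, had an unadjusted and an adjusted p under 0.05 there, at less than 2-fold (23.8% of tested genes had such an adjusted p). The difference between these radiation effects was called for the same 3 genes, all lower in TNFR KO hosts (2.05% of tested genes, 2.21% in either direction), with a median of -1.30 against -0.01.

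Between hosts, the tested members other than Il1rap stood further apart in irradiated than in untreated pools. Il1rap by its brightest probe set gave -0.63 irradiated against -0.68 untreated. The share of all tested genes that stood further apart in irradiated pools was not counted. For Il18 and Il33 the difference between radiation effects was not called. In irradiated tumours 4 of 6 were lower in TNFR KO hosts (7.43% of tested genes) and none higher (0.793%, or 8.22% in either direction), with a median of -1.37 against 0.06. In untreated tumours none passed as lower (6.25%) or higher (2.06%, 8.31% together) by limma at 2-fold, with a median of -0.28 against 0.08, while 2 had an unadjusted and an adjusted p under 0.05, as 50.2% of all tested genes did after adjustment. Over both treatments, 3 of 6 were lower (18.9% of tested genes) and none higher (12%, or 30.9% in either direction). For radiation over both hosts none of the 6 was called higher (1.55%) or lower (0.353%, 1.9% together) by limma. Of the 6, 3 had an unadjusted p under 0.05, as did 1889 of all 11345 tested genes. Fits of a single pool against another rest on the spread between duplicate arrays and required a 2-fold difference and an adjusted p under 0.05. Comparisons over both treatments or hosts rest on 4 pool means, with the unequal radiation response of the hosts as their error. Radiation in WT, host in irradiated tumours and the difference between effects share the irradiated WT pool, so their counts are not separate evidence.

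**Figure D1:**
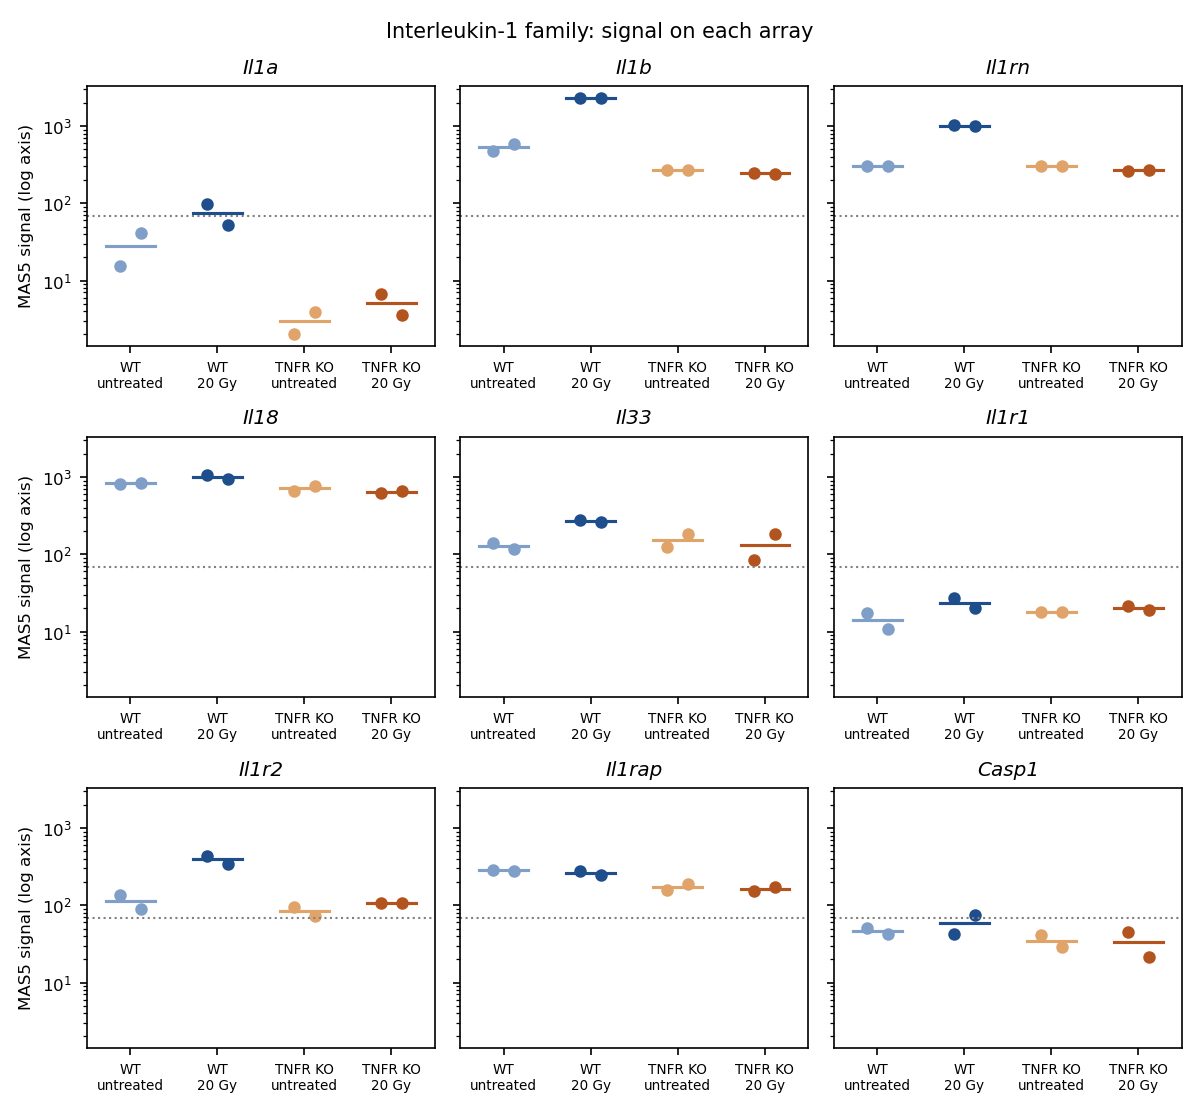
MAS5 signal (log axis) of the brightest probe set of 9 genes on each of 8 arrays, with points for arrays, bars for pool means and a dotted line at the signal of 68.8 that defined tested genes. Il1b, Il1rn and Il1r2 are highest on both irradiated WT arrays, Il1a is near the bottom of the axis on all 4 TNFR KO arrays, and Il1r1 lies below the line throughout.

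**Figure D2:**
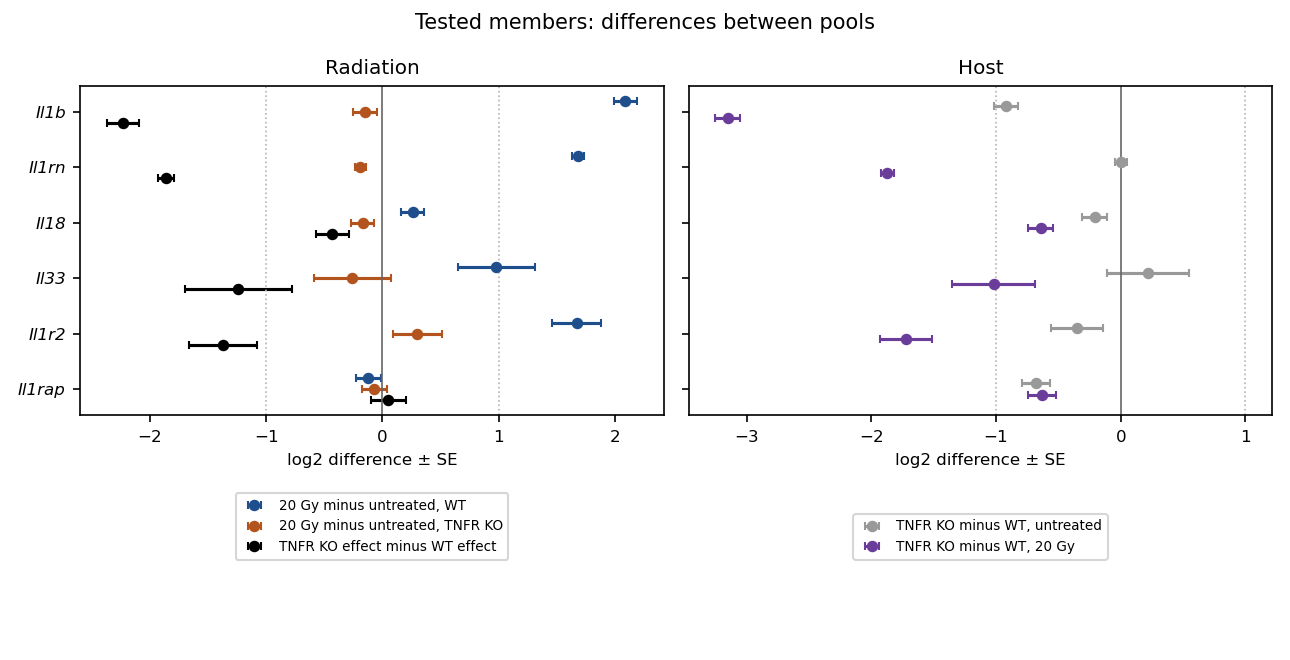
Log2 differences ± SE (limma, 8 arrays as 4 group means) of the 6 tested members, with dotted lines at the 2-fold threshold. Radiation differences are near 0 in TNFR KO hosts and reach 2.09 for Il1b in WT hosts, and the host difference of Il1b is -3.15 after irradiation against -0.92 before.

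Preparation differed between the hosts' arrays. The 3' probe sets of the poly-A spike-ins dap, lys, phe and thr averaged 4395 to 22387 on the WT arrays and 10.4 to 39.6 on the TNFR KO arrays, and within WT they were 2743 to 16989 untreated and 6047 to 27784 irradiated. The 18S probe set averaged 331 (untreated) and 405 (irradiated) in WT, and 567 and then 867 in TNFR KO. The hybridisation control cre averaged 18077 in WT and 17367 in TNFR KO. By pool, cre averaged 15624 untreated and 20530.3 irradiated in WT, and 16366 and 18367 in TNFR KO. The control bioB averaged 348 and 457 in WT, and 334 and 345 in TNFR KO. In every host comparison, host and preparation cannot be told apart, and their part in the radiation results was not tested. The tumour label was borne out by 9 of 9 melanocyte genes above the level for testing, with a summed signal of 165338 to 200952 on the 8 arrays.

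Il1b encodes interleukin-1 beta, the main secreted agonist of the family, and varied most among the tested members, over 3.15 log2 units between pools. Its signal was 478 and 591 on the untreated WT arrays, 2304 and 2320 on the irradiated WT arrays, 273 and 274 on the untreated TNFR KO arrays, and 250 and 241 on the irradiated TNFR KO arrays. The 4 pools did not overlap, and every TNFR KO array read below every WT array. The rise after irradiation in WT was 4.33-fold in signal (log2 difference 2.09 ± 0.10, adjusted p = 0.000319). In TNFR KO hosts the ratio was 0.899 (log2 difference -0.15 ± 0.10, adjusted p = 0.331), and the radiation effects differed by -2.23 ± 0.14 (adjusted p = 0.002). Il1b was therefore 9.42-fold lower in signal in TNFR KO tumours after irradiation (log2 difference -3.15 ± 0.10, adjusted p = 5.61e-05). Without irradiation it was 1.96-fold lower in signal (-0.92 ± 0.10, adjusted p = 0.000848), short of 2-fold. The log2 differences include a pseudocount of 16 and correspond to 8.9-fold and 1.89-fold. Without WT untreated replicate 1 that untreated difference was -1.07 and passed. Over both treatments the host difference was -2.04 ± 0.38 (adjusted p = 0.00307), a call that ended without WT untreated replicate 2 (-1.96, adjusted p = 0.0564) and with quantile normalization (-1.94, adjusted p = 0.0528).

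Il1rn encodes the receptor antagonist, which occupies the receptor without activating it. Its signal was 307 and 304 on the untreated WT arrays, 1019 and 1004 on the irradiated WT arrays, 304 and 305 on the untreated TNFR KO arrays, and 265 and 267 on the irradiated TNFR KO arrays. On this probe set the untreated pools of both hosts were alike, and the irradiated WT pool stood alone. In WT the rise was 3.31-fold in signal (log2 difference 1.68 ± 0.05, adjusted p = 0.000147). In TNFR KO hosts the irradiated pool read slightly below the untreated one (-0.19 ± 0.05, adjusted p = 0.0468, far from 2-fold), and the effects differed by -1.86 ± 0.07 (adjusted p = 0.000943). The host difference was 0.00 ± 0.05 untreated (adjusted p = 0.972) and -1.87 ± 0.05 irradiated (adjusted p = 4.26e-05), and -0.93 ± 0.33 over both (adjusted p = 0.0529). The second probe set of Il1rn gave 1.74 for radiation in WT and 0.06 in TNFR KO hosts on the log2 scale, and the third gave 0.63 and -0.08. Between hosts the second set differed by -0.34 untreated and -2.02 irradiated, and the third by 0.13 and -0.58. Their differences between effects were -1.68 and -0.71, so the third set stayed short of 2-fold throughout.

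**Figure D3:**
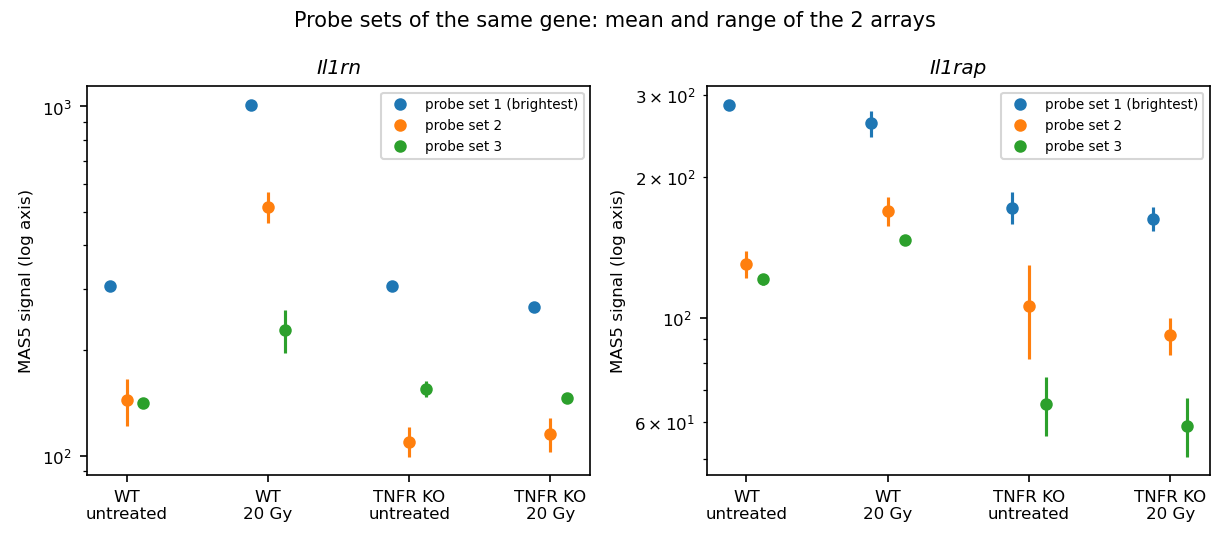
Mean MAS5 signal (points, log axis) and range of the 2 arrays (lines) in each pool for the 3 bright probe sets of Il1rn and the 3 of Il1rap. All 3 of Il1rn are highest in the irradiated WT pool, and all 3 of Il1rap are lower in the TNFR KO pools than in the WT pools of the same treatment.

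The sequences before the annotated starts of Il1b and Il1rn, the 2 ligand genes whose radiation effects differed between hosts, are shown with the motifs found in them. They were read from RefSeq on GRCm38.p6, on each gene's strand, and end before the gene's outermost annotated start. Il1b lies on the minus strand of chromosome 2 at chr2:129371165-129371389, and capitals mark a TATA box (TATAAA) whose first base is 31 bases before the start used in the table. Il1rn lies on the plus strand at chr2:24336610-24336859, and capitals mark an AP-1 consensus (TGANTCA) whose first base is 141 bases before the start.
Il1b: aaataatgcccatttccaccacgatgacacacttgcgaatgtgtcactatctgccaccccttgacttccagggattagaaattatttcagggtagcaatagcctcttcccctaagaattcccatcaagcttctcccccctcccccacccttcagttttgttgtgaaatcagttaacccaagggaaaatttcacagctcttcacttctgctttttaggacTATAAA
Il1rn: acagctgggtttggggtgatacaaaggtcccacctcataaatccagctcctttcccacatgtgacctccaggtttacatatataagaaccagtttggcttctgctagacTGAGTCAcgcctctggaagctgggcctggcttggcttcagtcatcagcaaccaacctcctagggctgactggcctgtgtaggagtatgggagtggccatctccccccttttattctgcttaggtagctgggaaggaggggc

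Both strands of the 250 bases before each annotated start were searched, with overlapping matches counted. The NF-kB consensus was found in 7.25% of 32851 such windows, TGANTCA in 6.75%, the C/EBP half-site pair TTGCNNAA in 9.56% and TATAAA in 12.4%. No window of Il1b, Il1rn, Il1r2, Il18, Il33 or Il1rap held the NF-kB consensus, which says only that these letters are not in these windows. Il1a, whose table start lies inside a longer annotated transcript, held TATAAA at 32 and TGANTCA at 12 bases before its start. Of the 3 windows of Il1rn, 1 held TGANTCA. A match is a description of the letters, and no binding was measured.

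Il1a encodes interleukin-1 alpha, which is active without cleavage and is released from damaged cells. Its mean signal fell below the level for testing, and 1 of 4 pools exceeded it. Il1a read 15.2 and 41.3 on the untreated WT arrays, 98.7 and 53.0 on the irradiated WT arrays, 2.0 and 3.9 on the untreated TNFR KO arrays, and 6.7 and 3.6 on the irradiated TNFR KO arrays. Every TNFR KO array read below every WT array, while the duplicates of each pool were wide apart. The TNFR KO readings lie far under the level for testing, where a log2 difference is set largely by the pseudocount, so no fold or test is given. Il1a and Il1b are neighbouring genes on chromosome 2.

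Il18 encodes interleukin-18, which promotes interferon-gamma production by lymphocytes. Its signal was 819 and 845 on the untreated WT arrays, 1062 and 938 on the irradiated WT arrays, 665 and 777 on the untreated TNFR KO arrays, and 619 and 652 on the irradiated TNFR KO arrays. All WT arrays read above all TNFR KO arrays, by small margins. Neither radiation comparison was called, with log2 differences of 0.26 ± 0.10 in WT (adjusted p = 0.109) and -0.17 ± 0.10 in TNFR KO hosts (adjusted p = 0.247). The difference between these effects was -0.43 ± 0.14 (adjusted p = 0.11). After irradiation Il18 differed between hosts by -0.64 ± 0.10 (adjusted p = 0.00268), short of 2-fold. Il18 was thus the ligand gene with the narrowest range among the 4 tested, 0.64 log2 units between pools.

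Il33 encodes interleukin-33, a nuclear alarmin of barrier and stromal cells that signals through the Il1rl1 product. Its signal was 140 and 117 on the untreated WT arrays, 274 and 264 on the irradiated WT arrays, 125 and 184 on the untreated TNFR KO arrays, and 84.4 and 181 on the irradiated TNFR KO arrays. Both irradiated WT arrays were above the other 6, among which the pools overlapped. Radiation in WT gave a log2 difference of 0.98 ± 0.33 (adjusted p = 0.0762), and in TNFR KO hosts -0.26 ± 0.33 (adjusted p = 0.601). These differed by -1.24 ± 0.46 (adjusted p = 0.146), and no call was made. In irradiated tumours Il33 was 2.02-fold lower in TNFR KO hosts (-1.02 ± 0.33, adjusted p = 0.0398). That call ended without WT untreated replicate 1 or 2 (-1.02 in both fits), WT irradiated replicate 1 (-0.99) or 2 (-1.04), or TNFR KO irradiated replicate 1 (-0.53), and also with quantile normalization (-0.94), median centring (-0.98), a pseudocount of 64 (-0.80) and no filter on low signal (-1.02, adjusted p = 0.085).

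Il1r2 encodes the decoy receptor, carried by neutrophils among other cells. Its signal was 137 and 90.8 on the untreated WT arrays, 439 and 347 on the irradiated WT arrays, 96.3 and 73.5 on the untreated TNFR KO arrays, and 107 and 108 on the irradiated TNFR KO arrays. The irradiated WT arrays were above all others, and the untreated pools of the hosts overlapped. In WT the rise was 3.45-fold in signal (log2 difference 1.67 ± 0.21, adjusted p = 0.00457), and in TNFR KO hosts the difference was 0.30 ± 0.21 (adjusted p = 0.329). Irradiated tumours differed by -1.72 ± 0.21 between hosts (adjusted p = 0.00104) and untreated ones by -0.35 ± 0.21 (adjusted p = 0.206). The difference between the radiation effects, -1.37 ± 0.29 (adjusted p = 0.0426), was close to the threshold. It ended without WT untreated replicate 2 (-1.11), WT irradiated replicate 1 (-1.21) or 2 (-1.53), either TNFR KO untreated array (-1.21 and -1.53) or either TNFR KO irradiated array (-1.36 and -1.38), and with quantile normalization (-1.21), no pseudocount (-1.46) or no filter on low signal (-1.37, adjusted p = 0.118). Over both treatments the host difference of Il1r2 was -1.03 ± 0.27, or 2.05-fold lower in TNFR KO (adjusted p = 0.0147). This call ended without WT untreated replicate 1 (-0.90), WT irradiated replicate 1 (-0.95), replicate 2 of untreated TNFR KO (-0.95) or replicate 2 of irradiated TNFR KO (-1.04), and with quantile normalization (-1.07).

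Il1rap encodes the accessory protein that the receptors for interleukin-1 and interleukin-33 share. Its signal was 288 and 282 on the untreated WT arrays, 278 and 244 on the irradiated WT arrays, 159 and 186 on the untreated TNFR KO arrays, and 153 and 173 on the irradiated TNFR KO arrays. On this brightest probe set WT and TNFR KO arrays did not overlap, and irradiated WT arrays read just below untreated ones. Within TNFR KO the treatments overlapped. On the second probe set the hosts overlapped, with an untreated TNFR KO array at 129.7 and an untreated WT array at 121.5. Over both treatments the host difference of Il1rap was -0.65 ± 0.16, or 1.57-fold lower in TNFR KO (adjusted p = 0.0122). It was -0.68 ± 0.11 untreated and -0.63 ± 0.11 irradiated (adjusted p = 0.00311 and 0.00362, both short of 2-fold). Radiation gave -0.12 ± 0.11 in WT and -0.07 ± 0.11 in TNFR KO hosts (adjusted p = 0.432 and 0.648), with a difference of 0.05 ± 0.15 between them (adjusted p = 0.852). Over both treatments the 2 other bright probe sets of Il1rap differed by -0.54 and -0.94 between hosts, and 2 dim ones by -0.06 and 0.18. Between hosts the 2 other bright sets differed by -0.29 and -0.76 untreated, and by -0.79 and -1.13 irradiated. For radiation in WT those 2 bright sets gave 0.34 and 0.26, opposite in sign to the brightest set, and their differences between effects were -0.49 and -0.38.

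Il1r1, which encodes the signalling receptor for both agonists, read between 10.7 and 26.9 on the 8 arrays, and its other probe set between 1.4 and 28.9. No pool mean of Il1r1 reached the level for testing, so no change in this receptor could be read. Casp1, which encodes the protease that matures interleukin-1 beta and interleukin-18, read 50.3 and 43.0 (WT untreated), 41.9 and 75.2 (WT irradiated), 40.9 and 28.6 (TNFR KO untreated) and 45.0 and 21.1 (TNFR KO irradiated). Both untreated TNFR KO arrays of Casp1 read below all WT arrays, while the irradiated TNFR KO pool overlapped every other pool. All 4 pool means were below the level for testing, and no test was made. The genes Il1r2, Il1r1, Il1rl2, Il1rl1 and Il18r1 follow each other on chromosome 1 in GRCm38.p6, and the neighbours Il1r2 and Il1r1 are the detected decoy and the dim signalling receptor.

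Other genes of the pathway were read from 4 lists. Of 16 further ligand and receptor genes, 12 were on the array and 6 tested. Il18bp, which encodes a soluble inhibitor of interleukin-18, rose from 144 to 429 with radiation in WT (log2 difference 1.47 ± 0.17, adjusted p = 0.00388) and read 163 and 149 in the TNFR KO pools (-0.11 ± 0.17, adjusted p = 0.67). The difference between the effects on Il18bp was -1.58 ± 0.24 (adjusted p = 0.0196). It held without WT irradiated replicate 1 or replicate 2 of untreated TNFR KO, and ended without any other 1 of the 8 arrays (-1.70 to -1.41).

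Sigirr, an inhibitory member of the receptor family, read 435 untreated and 387 irradiated in WT, against 438 and 792 in TNFR KO. Its radiation effects differed by 1.00 ± 0.18 (adjusted p = 0.0297), which passed without WT irradiated replicate 2 and ended without any other 1 of the 8 arrays (0.87 to 1.13). Il1f9, an epithelial ligand, read 87.1 and 162 in WT and 40.3 and 84.5 in TNFR KO hosts. Il1f9 was lower in TNFR KO hosts over both treatments (-0.86 ± 0.16, adjusted p = 0.00318). Its radiation difference over both hosts (0.81 ± 0.16, adjusted p = 0.0322) ended without any 1 of the 8 arrays (0.71 to 0.92).

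Of 10 inflammasome and release genes tested, none was called for radiation in WT, radiation in TNFR KO or the difference between effects, by limma at 2-fold. Of all tested genes, 2.45%, 1.37% and 2.21% were called in these comparisons. Unadjusted p-values under 0.05 numbered 5, 3 and 3, against 4524, 4419 and 3272 among all 11345 tested genes. Nek7, a cofactor of the Nlrp3 inflammasome, was lower in TNFR KO hosts (-0.78 ± 0.16, adjusted p = 0.00513). The ATP receptor gene P2rx7 differed by 0.73 ± 0.16 after radiation over both hosts (adjusted p = 0.049), a call that ended without any 1 of the 8 arrays (0.69 to 0.77). Of 15 receptor signalling genes tested, none was called for radiation in WT or TNFR KO hosts by limma at 2-fold (2.45% and 1.37% of all tested genes were). Of the 15, 9 and 6 had an unadjusted p under 0.05, against 4524 and 4419 of all 11345. Over both treatments, 5 were lower in TNFR KO hosts (18.9% of all tested genes were) and 10 were not called. The median host difference of the 15 was -0.01, against 0.09 over all tested genes, so the list as a whole was not shifted. Tab3, a binding partner of the kinase Map3k7 (TAK1), differed by -1.70 ± 0.17 (adjusted p = 0.000245), the ubiquitin ligase gene Peli1 by -1.48 ± 0.17 (adjusted p = 0.0003), and Map3k7 by -1.10 ± 0.16 (adjusted p = 0.000836). Taking the mean of all probe sets left Map3k7 at -0.36, without a call, and Peli1 at -0.72, still called. With that mean Peli1 was no longer called untreated (-0.75) or irradiated (-0.69). Tab2 (-0.82 ± 0.16) and Ube2n (-0.53 ± 0.16) were the others, and the call on Ube2n ended without 6 of the 8 arrays, each left out in turn (-0.54 to -0.51), the exceptions being WT irradiated replicate 2 and replicate 2 of untreated TNFR KO.

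Most of the genes known to be induced by interleukin-1, many of which TNF also induces, rose with radiation in WT. Of 22 listed, 16 were tested, and 13 rose after irradiation in WT hosts (2.25% of all tested genes did), with a median log2 difference of 1.20. In TNFR KO hosts none rose and 2 fell, Lcn2 and Saa3 (1 without replicate 2 of either TNFR KO pool), with a median of -0.09. The difference between effects was called lower for 13 of 16 (2.05% of all tested genes), with a median of -1.63, and for 8 without TNFR KO untreated replicate 2. With arrays centred on their medians, 7 rose in WT. The neutrophil attractant gene Cxcl3 read 550 untreated and 3083 irradiated in WT, against 119.8 and 159 in TNFR KO, and its effects differed by -2.08 ± 0.26 (adjusted p = 0.0117; -2.06 and no call without TNFR KO untreated replicate 2). For Saa3, an acute-phase gene, the pools read 2208 and 4275 in WT and 1634 and 502 in TNFR KO (difference of effects -2.62 ± 0.11, adjusted p = 0.000943). The metalloprotease genes Mmp3 (-1.90 ± 0.40) and Mmp13 (-1.90 ± 0.31) were also called (adjusted p = 0.0413 and 0.0237). Mmp3 read 78.9 and 175 in WT and 225 and 121 in TNFR KO, so its untreated signal was higher in TNFR KO. Mmp13 read 82.6 and 184 in WT and 102 and 48.6 in TNFR KO. In TNFR KO hosts radiation gave -0.89 ± 0.28 for Mmp3 and -0.87 ± 0.22 for Mmp13, both short of 2-fold. With each array left out in turn, the Mmp3 call ended in 6 of 8 fits and the Mmp13 call in 5 of 8, over ranges of -2.36 to -1.43 and -2.20 to -1.61.

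**Figure D4:**
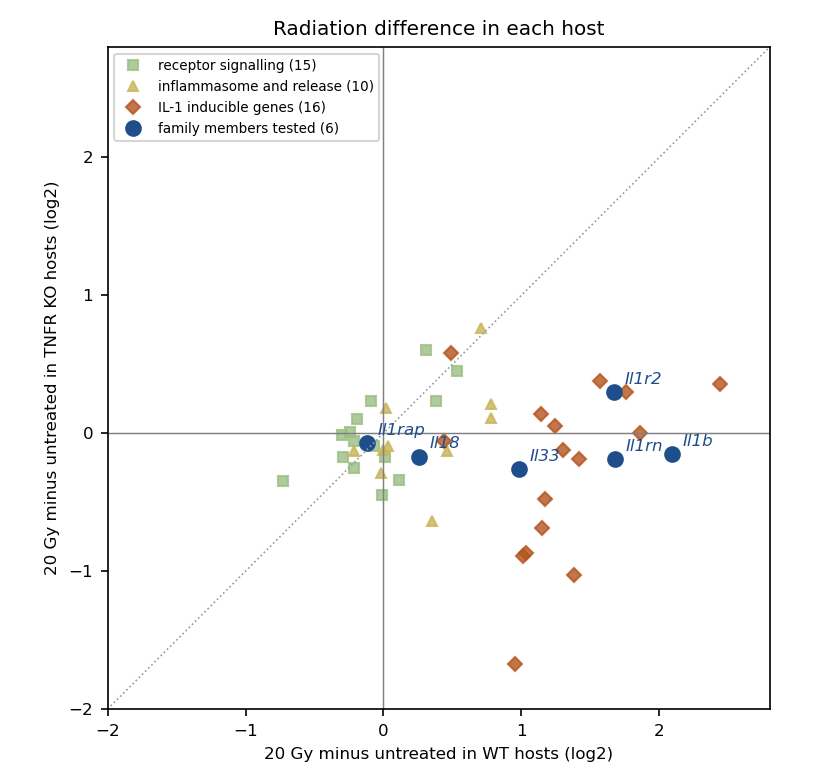
Log2 difference between irradiated and untreated pools in WT (x axis) and TNFR KO hosts (y axis), which share no pool, for the 6 tested members (labelled) and 3 lists, with the dotted line marking equal differences. Il1b, Il1rn and Il1r2 and most interleukin-1 inducible genes lie to the right and near or below 0 on the y axis, while receptor signalling genes cluster around the origin.

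Neutrophil markers, like Il1b, Il1rn and Il1r2, had their highest summed signal in the irradiated WT pool. This was not particular to neutrophil genes. Mast cell and basophil genes summed to 790 to 882 there and to at most 616 elsewhere. Lymphocyte genes summed to 924 to 991 there and to at most 826 elsewhere. In each of these 2 lists only 1 gene reached the level for testing. Summed over 11 neutrophil genes, the signal was 3916 to 4341 on untreated WT arrays, 23949.7 to 24784 on irradiated WT arrays, 1311 to 1383 on untreated TNFR KO arrays and 1522 to 1555 on irradiated TNFR KO arrays. S100a8 and S100a9 made up most of that sum, at 13868 and 9222 in the irradiated WT pool. Of 6 tested neutrophil genes, 5 rose in WT (2.25% of all tested genes did). None was called for radiation in TNFR KO by limma at 2-fold (1.37% of tested genes were). There 2 of the 6 had an unadjusted p under 0.05, as did 4419 of all 11345 tested genes. Camp, Mpo and Elane, granule genes made in immature neutrophils, were below the level for testing on every array. Ngp of the same list rose in WT and was the only neutrophil gene called for radiation over both hosts. Over both treatments 4 of the 6, Mmp8 among them, were lower in TNFR KO hosts (18.9% of tested genes were). The neutrophil receptor gene Csf3r read 83.0 and 233 in WT and 72.6 and 91.7 in TNFR KO hosts. Fewer cells of a type and less RNA per cell cannot be told apart in these bulk samples, and the part of cell numbers in the interleukin-1 results was not tested.

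Macrophage genes were divided in their order across pools. Over 15 genes the sum was 9384 to 9585 (WT untreated), 18767 to 18780.4 (WT irradiated), 18084 to 19108 (TNFR KO untreated) and 12302 to 12922 (TNFR KO irradiated), and 11 of 14 tested were called lower in the difference between radiation effects (2.05% of all tested genes were). Of the 14, 8 had their highest pool mean in untreated TNFR KO, among them Csf1r (789 and 1251 in WT, 2431 and 1198 in TNFR KO), and 6 in irradiated WT, the pool where Il1b was highest. Those 6 were Cd14, Ctss, Mrc1, Msr1, Mertk and Itgam. Cd14, the lipopolysaccharide co-receptor of myeloid cells, read 416 and 2302 in WT and 437 and 532 in TNFR KO. The part of macrophage numbers in the Il1b values was not tested. Keratinocytes can make interleukin-1 alpha, interleukin-18 and interleukin-33. The sum of 13 keratinocyte genes was 529 to 641, 757 to 787, 3307 to 3653 and 1013 to 1066 in the same order, highest in untreated TNFR KO. The sums of 10 fibroblast genes (16159.8 to 16465) and 10 endothelial genes (3955 to 4056) were also highest in untreated TNFR KO. The part of keratinocytes, fibroblasts and endothelial cells in the ligand values was not tested. Of 10 mast cell and basophil genes 7, including Cpa3, Fcer1a and Ms4a2, were below the level for testing on every array.

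The genes nearest to Il1b and Il1r2 in pattern were found by the Euclidean distance between centred log2 pool means over 4 pools, a description with no test. For Il1b these were Wfdc21 (distance 0.27), Srgn and Cxcl9 (0.46 each), Gbp2 (0.49) and Clec4e (0.52). Srgn, the proteoglycan serglycin of immune-cell granules, read 1449.6 and 6721 in WT and 1080.3 and 980.2 in TNFR KO hosts, and Clec4e, a pattern receptor of myeloid cells, 131 and 711 against 41.4 and 40. For Il1r2 they were Plek (0.21), Gadd45b (0.26), Ifitm1 (0.31), Ccrl2 (0.33) and Mmp12 (0.34). Plek, a substrate of protein kinase C in blood cells, read 122 and 335 in WT and 84.2 and 112 in TNFR KO hosts. Gadd45b, a stress-response gene, read 658 and 2092 against 511 and 508.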

How the data were processed

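Per the labels, total RNA of whole tumours was pooled by group and 6 µg was labelled for Affymetrix whole-genome mouse arrays, 2 for each of 4 pools. The deposited values are linear signal intensity, and the submitters' processing notes name MAS5. Each array's trimmed mean was 500, as after scaling to a common target. Gene names came from the platform annotation. Signals were transformed as log2(signal + 16), which understates differences of dim genes; R 4.3.3, limma 3.58.1 and matplotlib 3.10.9 were used, with Benjamini-Hochberg adjustment over 11345 genes and two-sided tests.

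Effects over both treatments or hosts were fitted on 4 pool means with an additive model (1 residual and 9.52 prior degrees of freedom). Single comparisons and the difference between effects were fitted on 8 arrays as 4 group means (4 residual and 1.99 prior degrees of freedom), so their p-values measure the spread between technical duplicates. Fits were also run on simulated data whose noise was the duplicate spread or an assumed spread between pools. Those runs hold no measured variation between animals, so they cannot show how the p-values would stand against it. Duplicate arrays correlated at 0.975 to 0.981, and their number limits the precision.

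The members and gene lists were chosen with earlier results of these data known. All members are described; of the pathway lists, up to 6 genes called in a pool-level effect or in the difference between effects are eligible to be named. Cell-type markers named outside that rule were chosen after their values were seen. Alternatives were quantile normalization, median centring, pseudocounts of none and 64, other filters, the mean of probe sets, limma-trend, the replicate number as a block, other fold thresholds and leaving out each array.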

Additional observations from a re-analysis of the deposited data

Results flagged for a closer look

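For 3 members the radiation effect itself differed between hosts, tested as TNFR KO effect minus WT effect on the log2 scale: Il1b at -2.23 (adjusted p = 0.002), Il1rn at -1.86 (adjusted p = 0.000943) and Il1r2 at -1.37 (adjusted p = 0.0426). Each compares 4 pools with technical duplicates, so it holds no variation between animals. Both irradiated WT arrays read above the other 6 arrays for each of the 3 genes, an order that the call itself favours. The same order held for Il18 and Il33, whose radiation effects were not called different, and for Il1a, which was not tested. The share of all genes with this order was not counted.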

How the results depend on the processing

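Radiation in WT, host in irradiated tumours and the difference between effects kept the direction and call of Il1b and Il1rn under every alternative in which each was tested, with Il1b at 1.83 to 2.24, -3.24 to -2.94 and -2.38 to -2.01. A filter at the 75th percentile left 2 members to test and 1 called in each of these comparisons.

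For host over both treatments, 3 members were called, and 1 with quantile normalization, 5 with a pseudocount of 64, 5 with limma-trend and 0 with no filter, where 0 of 18193 genes were called. For radiation over both hosts, 0 were called, and 2 with median centring, 2 with a pseudocount of 64, 1 with the 75th-percentile filter, 1 with the mean of probe sets, 3 with limma-trend and 1 with 8 arrays not pooled. For host in untreated tumours, 0 were called, and 1 with median centring, 2 with no fold threshold and 2 at 1.5-fold. For radiation in TNFR KO hosts, 1 was called with no fold threshold. Leaving out an array gave 2 to 3 members for host over both treatments, 0 for radiation over both hosts, 3 for radiation in WT, 0 for radiation in TNFR KO, 0 to 1 for host untreated, 3 to 4 for host irradiated and 2 to 3 for the difference between effects. The cause was not tested.

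Values near 0 changed sign: Il18 for radiation over both hosts at -0.10 with median centring and -0.01 to 0.10 without an array; without an array, Il1rap for radiation in TNFR KO at -0.18 to 0.03 and for the difference between effects at -0.06 to 0.16, Il33 for radiation in TNFR KO at -0.74 to 0.23, and Il33 for host untreated at -0.03 to 0.47.

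Same-numbered arrays deviated with correlations of -0.03 to 0.05 over 6 group pairs, so the numbers do not pair the samples; with the replicate number as a block, 4, 0, 3, 0, 0, 4 and 3 members were called in the 7 comparisons, and all-gene calls moved from 3504 to 6106 for host and from 216 to 1771 for radiation on 8 unpooled arrays (6446 and 2471 without the block). Over all genes, radiation over both hosts gave 0 calls without WT untreated replicate 1 or with no filter, 2 with quantile normalization, 3 without WT untreated replicate 2 or WT irradiated replicate 1, and 780 with limma-trend, the 2471 on 8 unpooled arrays being the most; host calls fell to 1981 without WT untreated replicate 1. Median centring moved the all-gene median for radiation in WT from -0.02 to -0.28 and the share of higher calls from 91.7% to 55.6%, for radiation over both hosts from 81.5% to 50.8% (100% with quantile normalization), for host from 38.9% to 19.4%, for host untreated from 24.8% to 10.3% and for the difference between effects from 7.17% to 38%.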
